A study of Mus musculus with 2 samples.

Results

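The nuclear genes for oxidative phosphorylation were examined in bone-marrow-derived macrophages, phagocytes grown out of mouse marrow for 7 days in medium with 20% supernatant of L929 fibroblasts. Wild-type (WT) cells and cells with both copies of Oasl1 disrupted (Oasl1-/-) were compared, all of the C57BL/6J strain. All cells of both genotypes had been exposed for 9 h to poly(I:C), a double-stranded RNA analogue used at 5 µg/ml, and no array of untreated cells was analysed here. RNA from 3 samples was mixed for each genotype and put on 1 Affymetrix Mouse Gene ST array, which gave 2 arrays in all. The sources used here do not say how the Oasl1 allele was made. The genes are those whose symbol in the deposited annotation begins with Nduf, Uqcr, Cox4 to Cox8 or Atp5, together with Sdha, Sdhb, Sdhc, Sdhd, Cyc1 and Cycs. This rule uses names only and gave 91 of 22014 genes, covered by 120 probe sets, and each gene was read from its probe set with the highest mean of both arrays.

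Oxidative phosphorylation takes electrons from NADH and succinate through a chain of protein complexes in the inner mitochondrial membrane and uses the resulting proton gradient to make ATP. Complex I oxidises NADH, complex II oxidises succinate, complex III passes electrons from ubiquinol to cytochrome c, complex IV gives them to oxygen, and complex V is the ATP synthase. Most subunits are encoded in the nucleus and imported, while a few central ones are encoded by mitochondrial DNA. In macrophages the chain also makes signals such as reactive oxygen species, and strongly activated cells are known to lean on glycolysis instead.

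Of the 91 genes, 36 belong to complex I, 4 to complex II, 8 to complex III, 20 to complex IV and 15 to complex V, and 1 encodes cytochrome c. Ndufa4 and its paralogue Ndufa4l2 were placed with complex IV, where the Ndufa4 protein is now known to sit, although their symbols carry the complex I prefix. The prefixes also brought in Ndufaf1 to Ndufaf4, 4 assembly factors of complex I, and 3 further genes that were not placed with any complex. Those 3 are Atp5s, Atp5sl and Cox4nb, which the GRCm38.p6 annotation names Dmac2l, Dmac2 and Emc8, the last a subunit of a complex of the endoplasmic reticulum. In the deposited annotation 87 of the 91 genes carried a mitochondrial Gene Ontology component, against 4.22% of all genes. The 4 without one were Atp5sl, Cox7b2, Ndufa4l2 and Ndufaf3. The genes were picked by name, so this share is no test of the label, and Cox4nb is among the 87. A respiratory chain component was given for 10 of the 91 genes, and for no other gene. The 91 genes are spread over 19 chromosomes, with at most 10 on any of them.

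A gene was called above the floor when its log2 value was higher than that of 95% of the negative control probe sets on at least 1 array, a limit of 7.75 for WT and 7.68 for Oasl1-/-. By this measure 72 of the 91 genes were above the floor, all 72 on both arrays, and 19 were below it on both. All differences are Oasl1-/- minus WT on the log2 scale. With 1 array of mixed RNA per genotype there is no replicate check, so no difference was tested and no error can be given. In mixed RNA of bulk cultures, fewer cells with a transcript and less transcript per cell cannot be told apart.

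Oasl1 itself read 12.59 in WT and 11.13 in Oasl1-/-, which is 2.76-fold lower and still far above the floor. Which of its probes lie in the disrupted part is not known here. All 8 macrophage markers measured were above the floor, with differences from -0.03 to 0.07. Among markers of neutrophils, T cells, B cells, fibroblasts, erythroid cells, striated muscle and spermatogenic cells, Ngp, a neutrophil granule gene, alone was above the floor, and only on the Oasl1-/- array (6.90 in WT, 7.79 in Oasl1-/-). The summed linear signal of the 8 neutrophil markers was 443 in WT and 672 in Oasl1-/-, and its part in the results below was not tested. All 6 striated muscle and all 5 spermatogenic markers were below the floor.

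The oxidative phosphorylation genes had nearly the same values in both genotypes. Not 1 of the 72 detected genes reached a 1.5-fold difference, which 0.878% of all 6376 genes above the floor did (0.361% higher and 0.518% lower in Oasl1-/-). With so small a share among all genes, finding none among 72 says little about this set. Their median difference was 0.0044, and the quartiles lay at -0.06 and 0.09. Over all genes above the floor the median was -0.04 and the quartiles lay at -0.15 and 0.05. Of the 72 genes, 59 (81.9%) differed by less than 1.1-fold, against 63.3% of all genes. At like brightness (mean values from 8.88 to 10.43), it was 80.6% of 36 members and 67.0% of 2276 other genes. The median size of the difference was alike there, 0.095 for the members and 0.091 for the other genes. At 1.2-fold, 3 were higher in Oasl1-/- (Cox6a1, Ndufa5 and Ndufa12), against 2.65% of all genes, and none was lower, against 8.91% of all genes. All these shares are of differences as deposited, in which the median gene lay at -0.04, and can shift with the scaling.

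**Figure D1:**
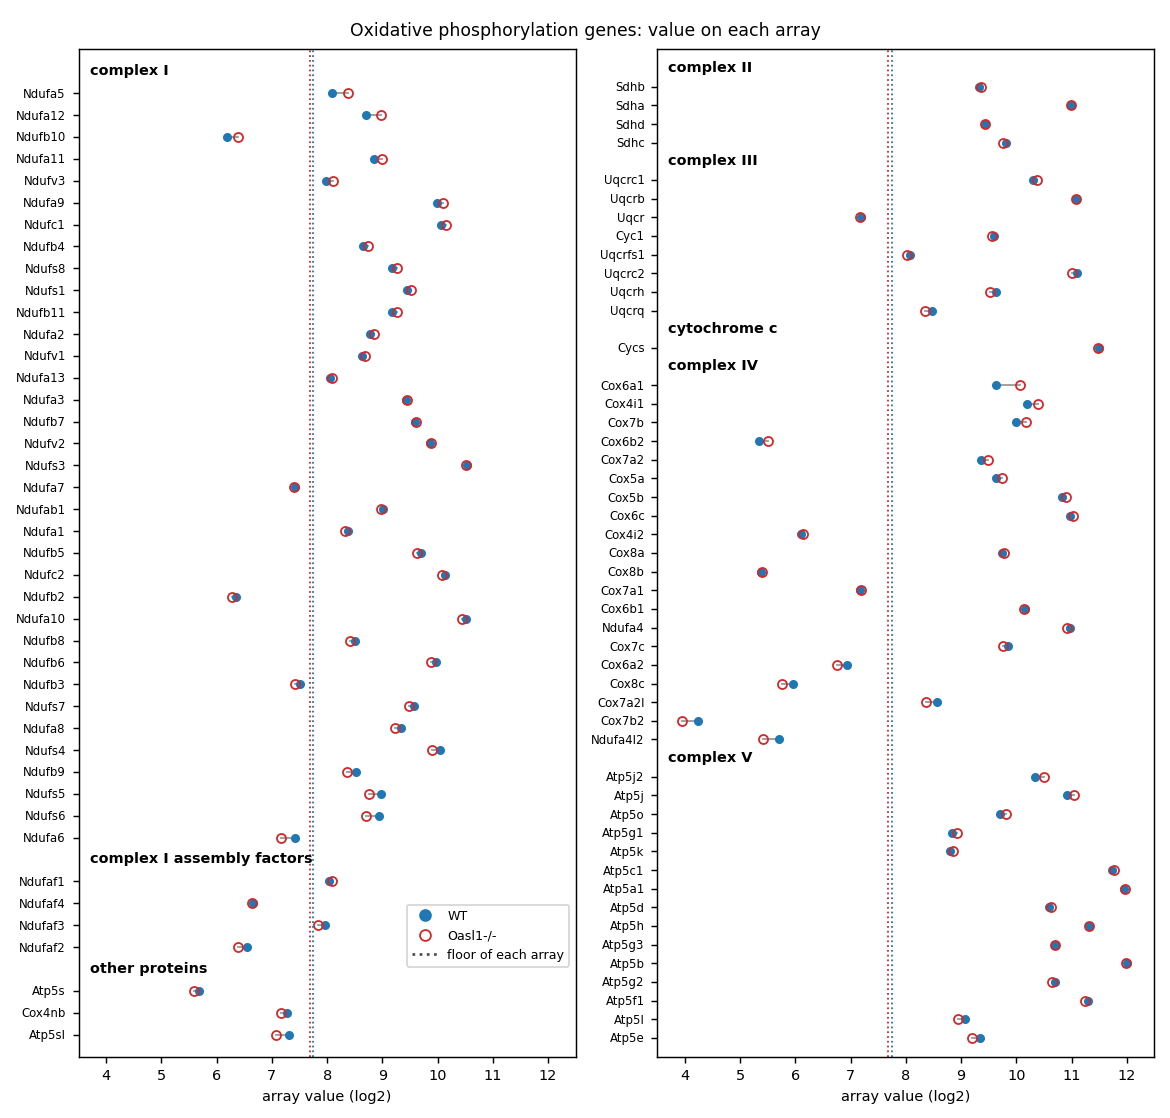
Log2 value of the oxidative phosphorylation genes on the WT array (filled) and the Oasl1-/- array (open), grouped by complex and ordered by difference, with dotted lines at the floor of each array (7.75 and 7.68). The 2 symbols overlap for most genes, Cox6a1 shows the widest gap among those above the floor, and 19 genes lie left of both floors.

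The direction was mixed. As deposited, 37 of the 72 genes were higher and 35 (48.6%) lower in Oasl1-/-, whereas 63.5% of all genes above the floor were lower. That share depends on where 0 is set, since the median gene lay at -0.04. With differences centred on that median, 24 of the 72 (33.3%) were lower, against 50% of all genes. With a loess trend on mean expression removed, 25 (34.7%) were lower, against 49.6%, and with quantile normalization 28 (38.9%), against 52.1%. The same 57 genes kept their sign under all 4 scalings, 36 of them higher and 21 lower, and 15 changed sign. Among genes of like brightness, with mean values from 8.88 to 10.43, the 36 members had a median of 0.02 and the 2276 other genes one of -0.04.

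Several of these genes have processed copies elsewhere in the genome, and the array carries probe sets at them. Of the 91 genes, 20 had more than 1 probe set, and 26 probe sets of 17 genes lay on another chromosome than the gene. For 18 genes at least 2 probe sets were above the floor, and these give a scale for the differences, although such probe sets can take up the same transcript. Within a gene the differences of its probe sets spanned 0.02 (Atp5g1) to 0.15 (Cox7b), with a median span of 0.09. In 8 genes the probe sets differed in sign (Atp5f1, Atp5l, Cox6c, Cox7c, Cycs, Ndufa11, Ndufb11 and Ndufs3). Beyond the widest span were 10 of the 72 genes (13.9%), against 32% of all genes above the floor. The span compares probe sets on the same 2 arrays and says nothing of the spread between cultures. Of the 10, Cox6a1, Ndufa5, Ndufa12, Cox4i1, Cox7b and Atp5j2 were higher in Oasl1-/-, and Ndufs6, Ndufs5, Cox7a2l and Ndufb9 lower.

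**Figure D2:**
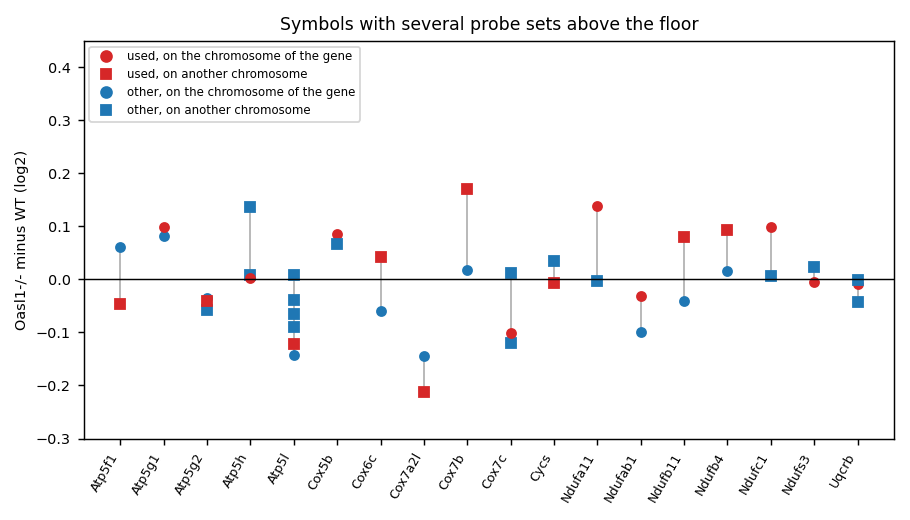
Difference between Oasl1-/- and WT (log2) of every probe set above the floor for the 18 genes with at least 2 of them. Circles lie on the chromosome of the gene and squares on another, red marks the probe set used, and lines join the probe sets of a gene, the longest line (Cox7b) spanning 0.15.

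The upstream sequences of 4 of these 10 genes are shown, the highest of complex IV, the highest of complex I and the 2 lowest of complex I, since they share a motif although their differences have opposite signs. They are the 250 bases before the transcription start in RefSeq on GRCm38.p6, each read on the minus strand of the genome. Cox6a1 lies at chr5:115348959-115349208, Ndufa5 at chr6:24527691-24527940 (the farther upstream of 2 starts), Ndufs5 at chr4:123718187-123718436 and Ndufs6 at chr13:73328483-73328732. Capitals mark the motif of NRF1 (nuclear respiratory factor 1) on either strand and, in Cox6a1, also the ETS motif CCGGAAG, here as its complement CTTCCGG, the kind of site that GABP binds.
Cox6a1: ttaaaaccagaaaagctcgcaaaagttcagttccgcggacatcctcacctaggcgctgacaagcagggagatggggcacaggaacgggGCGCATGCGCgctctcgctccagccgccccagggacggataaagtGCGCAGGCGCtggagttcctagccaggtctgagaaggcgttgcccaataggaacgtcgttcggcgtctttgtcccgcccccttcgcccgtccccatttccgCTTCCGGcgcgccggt
Ndufa5: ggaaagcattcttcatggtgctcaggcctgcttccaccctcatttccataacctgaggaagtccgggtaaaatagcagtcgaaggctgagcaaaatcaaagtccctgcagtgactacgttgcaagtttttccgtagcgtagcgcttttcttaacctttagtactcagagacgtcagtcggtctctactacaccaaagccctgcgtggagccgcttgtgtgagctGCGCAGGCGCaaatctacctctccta
Ndufs5: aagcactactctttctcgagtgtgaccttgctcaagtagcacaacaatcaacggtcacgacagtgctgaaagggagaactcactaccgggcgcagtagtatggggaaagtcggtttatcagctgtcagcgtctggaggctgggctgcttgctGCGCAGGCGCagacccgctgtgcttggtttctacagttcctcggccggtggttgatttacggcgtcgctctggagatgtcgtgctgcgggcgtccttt
Ndufs6: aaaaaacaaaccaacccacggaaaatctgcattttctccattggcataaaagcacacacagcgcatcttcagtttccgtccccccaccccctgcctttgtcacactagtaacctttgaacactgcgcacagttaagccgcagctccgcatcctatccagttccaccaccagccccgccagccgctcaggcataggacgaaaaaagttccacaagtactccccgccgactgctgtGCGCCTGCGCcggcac

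In Cox6a1 the NRF1 motif begins 162 and 117 bases before the start and the ETS motif 16 bases before it. In Ndufa5, Ndufs5 and Ndufs6 the NRF1 motif begins 26, 98 and 16 bases before the start. RefSeq promoter windows of 300 bases (250 before and 50 after the start) were found for 74 of the 91 genes, and the NRF1 motif stood in 12 of them (16.2%), against 3.37% of all 27025 genes with a window. The ETS motif stood in 17 (23.0%, against 9.93%). The YY1 motif stood in 6 (8.11%, against 1.25%), among them Ndufs6, where it begins at base 34 after the start. The interferon-stimulated response element stood in 0 of the 74 windows and in 0.189% of all. The 27025 genes were not limited to those on the array or above the floor. All 4 motifs were sought on both strands and could overlap. Of the 10 genes beyond the widest span of probe sets, the NRF1 motif stood only in the 4 shown. The windows of Ndufa12, Cox7b, Atp5j2, Cox7a2l and Ndufb9 lacked it, and no window was found for Cox4i1. The 11 genes above the floor with the NRF1 motif had differences from -0.24 to 0.43 with a median of 0.05, and the 49 without it had a median of -0.0039. For the YY1 motif the 5 genes with it had a median of -0.11 and the 55 without it 0.01, and for the ETS motif the medians were 0.0092 (16 genes) and 0.0096 (44 genes). A match describes the letters only and does not show that the factor binds there.

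Complex I, the entry point for electrons of NADH, had 31 of its 36 genes above the floor. Their median difference was 0.01 and 15 of the 31 were lower in Oasl1-/- (12, 10 and 11 after centring, loess and quantile normalization). The subunits that bind NADH and take up its electrons were near equal in both genotypes. Ndufv1, which carries the flavin, had 8.64 in WT and 8.69 in Oasl1-/-. Ndufv2 had 9.87 and 9.88, and Ndufs1, the largest subunit with several iron-sulphur clusters, had 9.44 and 9.52. The subunits that lead to ubiquinone were as close. Ndufs3 had 10.53 in WT and 10.52 in Oasl1-/-. Ndufs7 had 9.58 in WT and 9.47 in Oasl1-/- (difference -0.11), and Ndufs8 had 9.17 and 9.26. These core subunits thus stayed between -0.11 and 0.09.

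The widest differences of complex I were in accessory subunits, which surround the catalytic core. Ndufa5, a subunit of the arm that reaches into the matrix, had 8.09 in WT and 8.38 in Oasl1-/- (difference 0.30, 1.23-fold). Ndufa12, which joins the same arm late in assembly, had 8.70 and 8.98 (difference 0.27, 1.21-fold). Of the 6376 genes above the floor, 125 were at least as high in difference as Ndufa5 and 157 as Ndufa12. Ndufs6, a zinc-binding subunit of the matrix arm, had 8.95 in WT and 8.71 in Oasl1-/- (difference -0.24, 1.18-fold lower). Ndufs5, a small subunit on the side of the intermembrane space, had 8.98 and 8.76 (difference -0.22). Such values were not rare among all genes, since 738 were at least as low as Ndufs6. These 4 genes kept their sign under all 4 scalings, with Ndufa5 between 0.30 and 0.38 and Ndufs6 between -0.24 and -0.17. Each was read from a single probe set, and those of Ndufs5 and Ndufs6 held 11 and 15 probes. Next came Ndufb9 (8.52 and 8.37, difference -0.16) of the membrane arm and Ndufs4 (10.04 and 9.89, difference -0.15), whose loss in mice gives a model of Leigh syndrome.

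The remaining accessory genes of complex I above the floor lay between -0.11 (Ndufa8) and 0.14 (Ndufa11, 8.85 and 8.99). Ndufa11 shows how far probe sets can part, since its second one, on chromosome 16, had a difference of -0.0024. Ndufb11 had 0.08 at a probe set on chromosome 5 and -0.04 at the one on its own chromosome, X. Below the floor on both arrays were Ndufa6, Ndufa7, Ndufb2, Ndufb3 and Ndufb10, with values from 6.19 to 7.51. No fold is given for them, and their values do not show that the genes are off, since their products are known parts of complex I. Of the assembly factors, Ndufaf1 (8.03 in WT, 8.09 in Oasl1-/-) and Ndufaf3 (7.96 and 7.84) were above the floor, while Ndufaf2 and Ndufaf4 were below it.

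Complex II, which is also the succinate dehydrogenase of the tricarboxylic acid cycle, had all 4 genes above the floor and the narrowest range of the complexes with several members, -0.05 to 0.03. The flavoprotein Sdha had 10.98 in WT and 10.99 in Oasl1-/-. The iron-sulphur protein Sdhb had 9.33 and 9.36. The membrane anchors had 9.81 and 9.76 (Sdhc) and 9.43 on both arrays (Sdhd). Centring differences on the median of all genes above the floor shifts the median of the 4 from 0.0015 to 0.05.

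**Figure D3:**
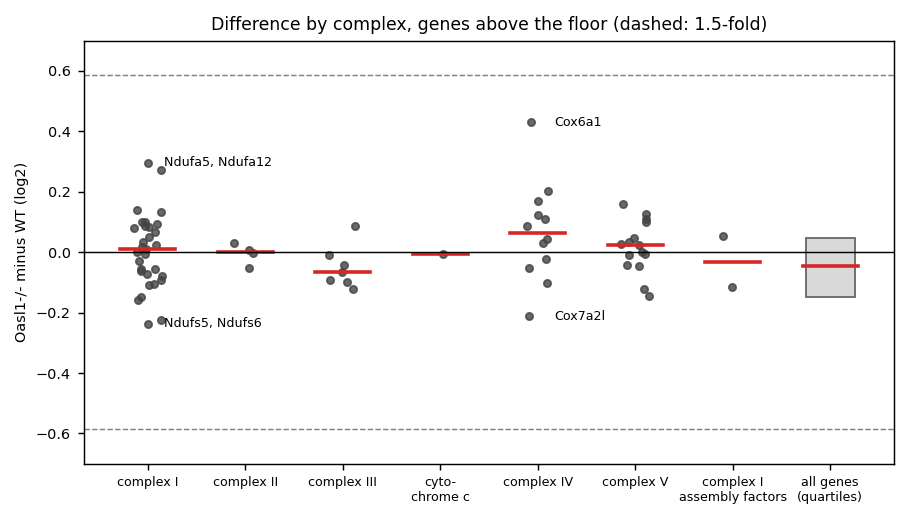
Difference between Oasl1-/- and WT (log2) of each gene above the floor by complex, with red bars at the medians, and the median and quartiles of all genes above the floor at the right (grey box, -0.15 to 0.05). All points lie inside the dashed lines at 1.5-fold, and the points farthest from 0 are Cox6a1 at 0.43 and Ndufa5 at 0.30.

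Complex III had 7 of 8 genes above the floor, with a median of -0.06. As deposited, 6 of the 7 were lower in Oasl1-/-, but 4 were after centring or loess and 3 after quantile normalization, so the direction follows the scaling. The core proteins differed in sign, Uqcrc1 having 10.29 in WT and 10.38 in Oasl1-/-, and Uqcrc2 having 11.10 and 11.01. Cyc1, the cytochrome c1 that hands electrons to cytochrome c, had 9.59 and 9.55, and Uqcrfs1, the Rieske iron-sulphur protein, 8.08 and 8.02. The lowest was Uqcrq, a small subunit, with 8.48 in WT and 8.35 in Oasl1-/- (difference -0.12). Uqcrh, the acidic hinge protein, had -0.10 and Uqcrb -0.0084. Uqcr, named Uqcr11 in GRCm38.p6, was below the floor on both arrays.

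Cytochrome c, the soluble carrier between complexes III and IV, is encoded in somatic cells by Cycs, which has many processed copies. Its probe set with the highest mean lies on chromosome 5 and had 11.49 on both arrays, and another bright one on chromosome 19 had 11.37 in WT and 11.40 in Oasl1-/-. The probe set on chromosome 6, where the gene itself lies, was below the floor on both arrays, with 6.93 in WT and 6.25 in Oasl1-/-. The difference of Cycs is therefore known only from probe sets on other chromosomes, and the mean of its 3 probe sets gave -0.22 instead of -0.0075.

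Complex IV, the cytochrome c oxidase, had 12 of 20 genes above the floor and the highest median of the complexes with several members, 0.06. Of the 12 genes, 8 were higher in Oasl1-/-, and 9, 9 and 8 were after centring, loess and quantile normalization. Cox6a1, which encodes the subunit VIa form found in most tissues, stood apart. It had 9.64 in WT and 10.07 in Oasl1-/- (difference 0.43, 1.35-fold), between 0.43 and 0.48 under the 4 scalings. In all, 47 of the 6376 genes above the floor were at least as high in difference, and 151 (2.37%) differed as much in either direction. Cox4i1, the main form of subunit IV, which contacts the mitochondrially encoded core, had 10.20 and 10.40 (difference 0.20). Cox5a had 9.63 and 9.74, and Cox5b, which binds zinc, had 10.82 and 10.90.

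The other subunits of complex IV lay closer to 0 than Cox6a1 and had both signs. Cox7b had 10.00 in WT and 10.17 in Oasl1-/- (difference 0.17) at a probe set on chromosome 1, but 0.02 at the one on its own chromosome, X. Cox7a2 had 0.12, Cox6c 0.04 (and -0.06 at its own locus), Cox8a 0.03, Cox6b1 -0.02, Ndufa4 -0.05 and Cox7c -0.10. Cox7a2l, a factor that joins complexes III and IV into supercomplexes, was the lowest, with 8.57 in WT and 8.36 in Oasl1-/- (difference -0.21). Its other probe set, on its own chromosome 17, had 8.01 and 7.87 (difference -0.14).

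Subunits of complex IV come in tissue-specific forms, and the forms of other tissues were below the floor on both arrays. Cox4i2, known from lung, had 6.10 in WT and 6.13 in Oasl1-/-. The heart and muscle forms Cox6a2 (6.93 and 6.76), Cox7a1 (7.18 and 7.19) and Cox8b (5.37 and 5.39) were below it too. So were the forms known from testis, Cox6b2 (5.33 and 5.50), Cox7b2 (4.23 and 3.95) and Cox8c (5.95 and 5.76), and Ndufa4l2 (5.71 and 5.42), a gene known to be induced by hypoxia. The counterparts Cox4i1, Cox6a1, Cox6b1, Cox7a2, Cox7b and Cox8a were above the floor in both genotypes.

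Cox6a1 lies close to the disrupted gene. In the coordinates of the deposited table (NCBIM37), Oasl1 is at chromosome 5, positions 115373249 to 115387924, and Cox6a1 begins at 115795661, which is 0.42 Mb away. Genes were placed by the probe set used, which can lie at a copy on another chromosome than the gene, as for Ndufb11. Within 1 Mb of Oasl1, 25 genes so placed, other than Oasl1, were above the floor. Of these, 3 (12%) differed at least as much as Cox6a1, against 2.37% of all genes. Besides Cox6a1 these were Kctd10 (9.08 in WT, 9.51 in Oasl1-/-, difference 0.43) and Gltp (9.86 and 9.37, difference -0.48). Within 10 Mb it was 9 of 116 genes (7.76%), and the 9 had both signs. Cox6a1 set the limit and is itself in both counts, so neither count could be empty. The windows were set with these values known. The other members in that window were Atp5k, 6.51 Mb away, with 0.05, and the chromosome 5 probe set of Ndufb11, 8.14 Mb away, with 0.08. Whether nearness to the disrupted locus has a part in the Cox6a1 value was not tested.

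**Figure D4:**
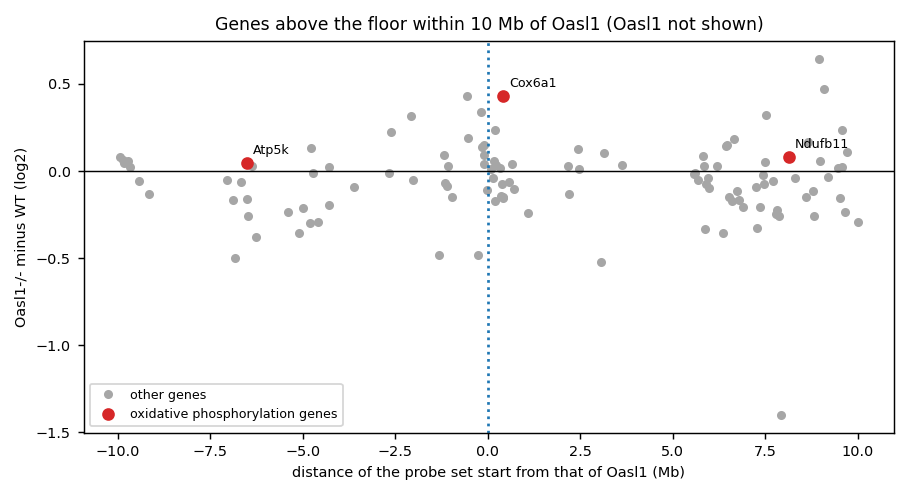
Difference between Oasl1-/- and WT (log2) of the 116 genes above the floor whose probe set used lay within 10 Mb of Oasl1. The horizontal axis is the distance of the probe set start from that of Oasl1 (dotted line, Oasl1 not shown). Red points are oxidative phosphorylation genes, of which Cox6a1, at 0.42 Mb, has a difference of 0.43.

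Complex V, the ATP synthase, had all 15 genes above the floor, with a median of 0.02 and a range from -0.15 to 0.16. The 3 large subunits of the catalytic head differed by at most 0.03. Atp5a1 (alpha) had 11.94 in WT and 11.97 in Oasl1-/-. Atp5b (beta), which holds the catalytic sites, had 12.00 and 11.99, and Atp5c1, the gamma subunit that turns inside the head, had 11.74 and 11.77. Of the smaller subunits of the rotor stalk, Atp5d (delta) had a difference of 0.02 and Atp5e (epsilon) the lowest of the complex, -0.15 (9.33 and 9.19).

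The membrane part and the outer stalk of the synthase varied a little more. The proton-carrying c-ring is encoded by Atp5g1, Atp5g2 and Atp5g3, whose mature products are known to be identical. Atp5g1 had 8.83 in WT and 8.93 in Oasl1-/-, and its other probe set, also on chromosome 11, had 8.68 and 8.77. Atp5g2 had 10.69 and 10.65 at a probe set on chromosome 7, and 10.50 and 10.46 at the one on its own chromosome, 15. Atp5g3 had 10.71 and 10.70. At the probe sets used, the 3 genes thus had differences of 0.10, -0.04 and -0.0047. Atp5j2, subunit f of the membrane part, was the highest, with 10.34 and 10.50 (difference 0.16). In the outer stalk, Atp5j (factor 6) had a difference of 0.13 and Atp5o, the subunit that confers oligomycin sensitivity, one of 0.11. Atp5f1 had -0.05 at a probe set on chromosome 11, but 0.06 at the one on its own chromosome, 3. Atp5h had 0.0020. Atp5l, subunit g, had 6 probe sets with differences from -0.14 to 0.01, of which that on its own chromosome, 9, was the lowest. As deposited 6 of the 15 genes were lower, and 3, 5 and 7 after centring, loess and quantile normalization.

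The annotation of the array predates the naming of some subunits. Through RefSeq accessions, 7 genes with other names in the deposited table carry the prefixes in GRCm38.p6. Among them Uqcr10, a small subunit of complex III, had 8.27 in WT and 8.15 in Oasl1-/-, and Ndufs5-ps, a pseudogene, 8.21 and 8.14. Atp5mpl had 10.28 and 10.27, and Atp5md 11.64 and 11.69. The assembly factors Ndufaf5, Ndufaf6 and Ndufaf7 were below the floor on both arrays. With names taken from GRCm38.p6 throughout, a choice made after seeing the data, 76 members passed the floor, at a median of 0.00059 and none at 1.5-fold.

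The factors that build the complexes and those that regulate mitochondrial genes were examined as lists. No member of any of the 9 lists differed by 1.5-fold, a size that only 0.878% of all genes above the floor reached. Of 15 regulators of mitochondrial biogenesis, 5 were above the floor and all 5 were lower in Oasl1-/-, under each of the 4 scalings. Gabpa, the DNA-binding subunit of GABP, had 9.30 in WT and 8.92 in Oasl1-/- (difference -0.38). Tfam, which packages mitochondrial DNA and helps to start its transcription, had 8.22 and 7.96 (difference -0.25). Gabpb1 had -0.22, Yy1 -0.20 and Esrra -0.14. The median of the 5 was -0.22, or -0.14 with the loess trend removed, and over all 15 it was -0.17 with those below the floor counted. Being lower was common, at 63.5% of all genes above the floor as deposited, and at 49.6% to 52.1% under the other scalings. Nrf1 (7.14 and 7.31) and Ppargc1a (4.30 and 4.37), the coactivator of the whole programme, were below the floor on both arrays. Among the regulators below the floor, these 2, Polrmt and Tfb1m read higher in Oasl1-/- and the others lower.

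Of 19 assembly factors of complex IV measured, 13 were above the floor, at a deposited median of -0.12. Under each of the 4 scalings 9 of the 13 (69.2%) were lower. Among all genes above the floor 63.5% were lower as deposited, and 49.6% to 52.1% under the other scalings. The widest differences were those of Cox11, a copper chaperone (7.92 in WT and 7.63 in Oasl1-/-, the latter below the floor), and Surf1 (8.51 and 8.27). Cox15, an enzyme of heme A synthesis, had 8.83 and 9.05 (difference 0.22). Of the complex I factors outside the prefix, 4 of 7 were above the floor, with Tmem126b at -0.25 and Timmdc1 at -0.23. For complex II it was Sdhaf2 alone (-0.19). For complex III it was Uqcc1 (7.89 and 7.96) and Uqcc3, above the floor in Oasl1-/- alone (7.69 and 7.96). For complex V, 4 of 6 genes were above the floor, with Atpif1, the inhibitor of the synthase, at 0.07 and Atp5md at 0.05.

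No enzyme or carrier that feeds the chain reached a 1.2-fold difference among those above the floor, against 11.6% of all genes. Of 18 genes of the tricarboxylic acid cycle and pyruvate dehydrogenase, 17 passed the floor, at a median of -0.02 and a range from -0.15 to 0.14. The widest were Suclg1, of succinate-CoA ligase (9.53 in WT and 9.37 in Oasl1-/-), and Idh3a, of isocitrate dehydrogenase (9.15 and 8.99). All 13 carriers and channels passed the floor, and their median was -0.04 (6 to 10 of them lower, depending on the scaling). Among them Slc25a12, an aspartate-glutamate carrier, had 11.15 and 11.31 and Vdac1, the outer membrane channel, 9.36 and 9.22. Of 8 other electron donors, 4 were above the floor, with Etfa at -0.24 and Etfb at 0.15, although both encode subunits of the same electron-transfer flavoprotein.

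**Figure D5:**
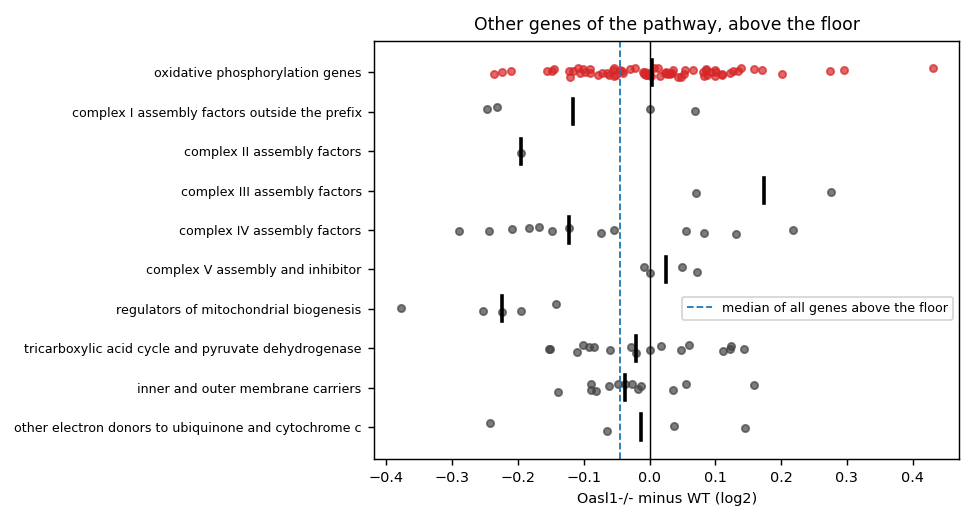
Difference between Oasl1-/- and WT (log2) of genes above the floor in 9 lists of the pathway and, in red, of the 72 oxidative phosphorylation genes. Black bars are medians and the dashed line is the median of all genes above the floor (-0.04), with all 5 regulators of mitochondrial biogenesis left of it.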

How the data were processed

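Mouse Gene ST arrays of 2 genotypes, 1 per genotype with RNA of 3 samples mixed before labelling per the labels' protocols, were used. The log2 values per probe set are as deposited by the authors. Per the submitters' processing notes they were made with GCOS and RMA, which corrects background, normalizes and summarises probes. Versions, and whether both arrays were normalized together, are not given in the sources used here. RMA compresses dim differences, mixing hides the spread between cultures, and the number of arrays limits the precision. A second deposited table differed by 0.

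Symbols of all 91 members matched RefSeq accessions of GRCm38.p6, and 5 have another symbol there. Probe sets with no symbol or several were left out. The floor came from 5267 negative control probe sets. Folds of 1.5, 1.2 and 2 were counted beside the share of all genes. Named are members at least 1.5-fold different, the 2 highest and 2 lowest of each complex, core subunits, isoform sets, members below the floor, those whose probe sets differ in sign, and of each list the 2 with the widest difference. Other names were chosen after their values were seen. Members and lists were chosen with earlier results of these data known. Alternatives were other floors, centring, loess (span 0.3), quantile normalization, other probe set choices and log2 of the linear value plus 32. The counting was tested on simulated data. The values of 1 core subunit are not reported here. Motif patterns were set with their counts known. The tools were NumPy 2.4.6 and pandas 2.3.3 under Python 3.11.15, with loess from statsmodels 0.14.6 and plots from Matplotlib 3.10.9.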

Additional observations from a re-analysis of the deposited data

How the results depend on the processing

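No member reached 1.5-fold under any floor, normalization, probe set choice or table tried, nor 2-fold, while 3 reached 1.2-fold. Over all genes, 56 reached 1.5-fold as deposited, 263 with no floor, 170 with the array median as the floor, 27 with the floor asked on both arrays and 34 on the scale of log2 plus 32. The median of the members ran from -0.0057 with no floor to 0.0489 with differences centred on the median gene, which moved complex II to 0.0459. The number lower in Oasl1-/- was 35 as deposited, 24 after centring and 25 with the loess trend removed. With the mean of all probe sets, cytochrome c moved to -0.22, and the probe set on its own chromosome gave -0.68 below the floor. Of 500 values of 50 named members under the alternatives, 497 stayed within 0.14 (the robust SD of all genes above the floor) of the value as deposited, and 29 had the opposite sign. The 3 that moved further were Cycs under both probe set choices and Cox7b at its own chromosome (0.02). Part of the 497 was fixed in advance. Other floors leave the difference of a gene as it is, and centring moves every gene by the same amount, smaller than 0.14. No paired analysis was possible because each genotype had 1 array, and for the same reason no replicate could be left out. Genes below the floor, 19 of the 91, have no usable fold.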

Other observations

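Subunits of complexes I, III, IV and V that mitochondrial DNA encodes had nearly the same values in both genotypes. The 7 that the deposited annotation names had differences from -0.06 to 0.02. They were among the brightest values, the highest of any gene above the floor being 13.71. Whether differences are compressed at such values was not tested. ND1 had 12.32 in WT and 12.26 in Oasl1-/-, CYTB had 12.88 and 12.84, COX1, the catalytic subunit of complex IV, had 13.11 and 13.12, and ATP6, of the proton channel of complex V, had 12.31 and 12.33.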
